A study of Mus musculus with 2 samples.

Results

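The 10 genes described here belong to killer lymphocytes, the natural killer (NK) cells and cytotoxic T cells, and were measured in mouse spleen RNA: the granule proteases Gzma, Gzmb and Gzmk, the pore-forming protein Prf1, the granule membrane protein Nkg7, and the lectin-like receptors Klrd1, Klrk1, Klrc1, Klra1 and Klrb1c. The genes were chosen by symbol, and every probe set whose platform annotation names one of them was taken, which gave 11 of the 12488 probe sets. Of the 10 genes, 7 were measured by 8 probe sets that name a single gene, 2 (Klra1 and Klrb1c) only by 3 probe sets shared with relatives, and 1 (Nkg7) was named by no probe set and is not analysed here. Purchased spleen total RNA of 1 catalogue number was hybridised to 2 oligonucleotide arrays, which form 1 group named spleen. The labels name no treatment, genotype, strain, sex, age or number of animals, and do not say whether the arrays came from separate RNA preparations, so the spread between them may be technical only. No conditions can be compared, and no p-value was computed.

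NK cells and cytotoxic T cells kill by releasing granules: perforin opens the target cell's membrane and granzymes, serine proteases stored with it, enter and trigger death. Lectin-like receptors encoded in a single stretch of the genome, the natural killer gene complex, decide whether an NK cell fires, some by inhibiting on contact with MHC class I and others by activating on contact with stress ligands. The spleen holds both cell types among a large excess of B cells, other T cells and red cell precursors, and fewer cells of a type and less RNA per cell cannot be told apart in such a bulk sample.

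Signals are intensities on a linear scale as deposited, with medians over all probe sets of 226.65 on array 1 and 226.4 on array 2. Genes whose signal passed the array's 60th percentile, 346.32 on array 1 and 342.22 on array 2, each time are called bright. The 15 bacterial control probe sets, whose targets are foreign to mouse, gave a background whose highest value was 95 on array 1 and 76.2 on array 2, and a signal is called above background where it exceeded that value. Because the sequence of a probe affects its brightness, no gene is called more abundant than another from these signals, and list medians and sums describe probe sets only. Each value is instead set against the background and the cutoff of its own array. Arrays have no read depth, and their number limits the precision.

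Of the 7 measured members, 6 lay above the background, of which Gzma and Klrd1 were bright, while Gzmk gave no signal above the bacterial controls. In counts, 6 of 7 member genes were above background on both arrays, against 73.9% of the 8251 named genes. Bright members were 2 of 7, against 45.2% of all named genes. The median signal of the 7 was 274, or 8.10 on the log2 scale, against 312, or 8.29, for all named genes. These shares describe 7 genes, and nothing particular to the members is read from them.

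**Figure D1:**
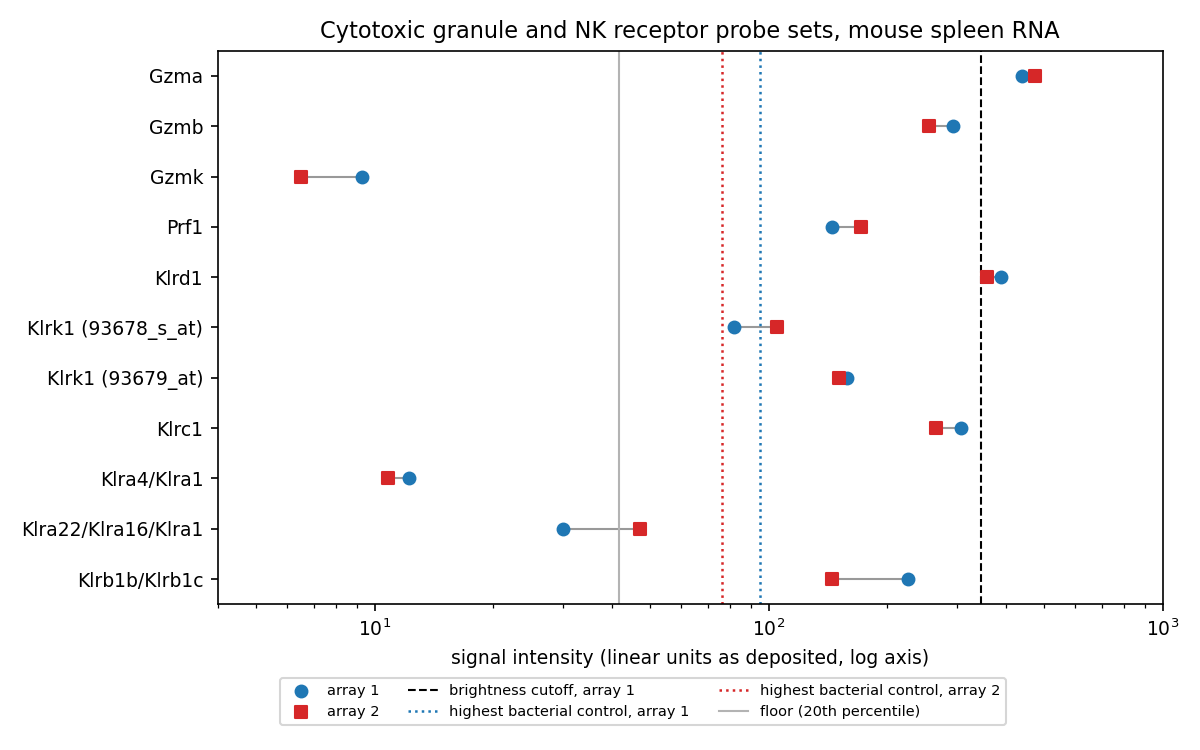
Signal of each of the 11 probe sets on array 1 (circles) and array 2 (squares), on a log axis, with the brightness cutoff, the highest bacterial control of each array and the floor of 41.8 as vertical lines. Gzma and Klrd1 lie right of the cutoff on both arrays, and Gzmk and the probe sets that include Klra1 lie left of both control lines.

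Among the granule proteases, Gzma, a trypsin-like granzyme, gave 440.1 on array 1 and 473.8 on array 2, or 457 ± 23.8 (SD, n = 2 arrays). It was bright on both arrays and exceeded the highest bacterial control 4.63-fold on array 1 and 6.22-fold on array 2. Its probe set carries the suffix _s_at, which marks probes shared by more than one transcript. Gzmb, the granzyme that cuts after aspartate and activates caspases, gave 293.2 and 255.7, or 274 ± 26.5 (SD, n = 2). That was 3.09 and 3.36 times the highest bacterial control, but 84.7% and 74.7% of the brightness cutoff, so it was present above background without being bright.

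Gzmk, a trypsin-like granzyme like Gzma, gave 9.3 on array 1 and 6.5 on array 2. These values were exceeded by 10 of the 15 bacterial controls on array 1 and by 13 on array 2, and both lay below the floor of 41.8, so Gzmk has no measured level here. Calr, an endoplasmic reticulum chaperone that nearly all cells make, read as low, at 5.9 and 4.7, so a low signal on these arrays does not by itself show that a transcript was rare. Prf1, perforin, gave 145.1 and 171.8, or 158 ± 18.9 (SD, n = 2), which was 1.53 and 2.25 times the highest bacterial control. Gzma, Gzmb and Prf1 were thus above background on both arrays, and Gzma was the only granule member that was bright.

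Gzma and Gzmk are next to each other among the protein-coding genes of chromosome 13, so their promoters are printed, together with that of Gzmb on chromosome 14. The sequences are RefSeq's for assembly GRCm38.p6 and run from 250 bases before to 50 after the annotated start, along the strand of the gene. Capitals mark matches, on either strand, to TCACAC (bound by T-box factors, which include Eomes and Tbx21), TGTGGT (bound by Runx factors), TGANTCA (AP-1) or TGACGTCA (the cyclic AMP response element).
Gzma, chr13:113100932-113101231, minus strand: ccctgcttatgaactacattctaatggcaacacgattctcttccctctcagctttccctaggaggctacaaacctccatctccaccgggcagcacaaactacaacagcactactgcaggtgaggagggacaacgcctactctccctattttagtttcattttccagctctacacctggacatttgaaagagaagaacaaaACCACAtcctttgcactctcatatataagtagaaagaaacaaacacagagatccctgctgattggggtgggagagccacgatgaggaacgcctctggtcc
Gzmb, chr14:56262285-56262584, minus strand: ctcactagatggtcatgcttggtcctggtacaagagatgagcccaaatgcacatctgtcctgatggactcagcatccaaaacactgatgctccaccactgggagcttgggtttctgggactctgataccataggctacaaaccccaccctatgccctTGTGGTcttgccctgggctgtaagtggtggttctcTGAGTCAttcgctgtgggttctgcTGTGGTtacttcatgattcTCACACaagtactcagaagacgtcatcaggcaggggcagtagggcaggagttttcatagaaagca
Gzmk, chr13:113180916-113181215, minus strand: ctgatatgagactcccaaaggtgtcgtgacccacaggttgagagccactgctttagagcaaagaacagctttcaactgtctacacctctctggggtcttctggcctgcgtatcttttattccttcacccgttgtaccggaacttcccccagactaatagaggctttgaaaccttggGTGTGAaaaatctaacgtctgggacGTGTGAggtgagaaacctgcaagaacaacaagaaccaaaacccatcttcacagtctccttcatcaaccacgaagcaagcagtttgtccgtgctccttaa
Gzma held 1 TGTGGT match, Gzmb held 2 of it with 1 TCACAC and 1 TGANTCA match, and Gzmk held 2 TCACAC matches and no TGTGGT. None of the 3 held TGACGTCA, which says only that these letters are not in these windows. No matches overlapped each other.

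Of the 4 motifs searched, TGTGGT was in the most member promoters. Promoters were found for 9 of the 10 genes, all but Klrd1, and 8 of the 9 held TGTGGT on either strand, against 16.8% of the 32851 promoters of the table. Promoters whose GC content lay within the members' range of 36% to 58.7% held it in 20.2% of cases. TCACAC was in 4 of 9 member promoters against 14.5% of all, TGANTCA in 2 of 9 against 7.81%, and TGACGTCA in 0 of 9 against 1.79%. The motifs were chosen after the member sequences had been seen, the receptor genes are relatives that share sequence, and a match is not a binding site. The 9 TGTGGT matches are shown with up to 12 bases on either side, turned so that the match, in capitals, reads TGTGGT, with the GRCm38.p6 strand on which it does.
Gzma, chr13:113101014-113101043, plus strand: gagtgcaaaggaTGTGGTtttgttcttctc
Gzmb, chr14:56262410-56262439, minus strand: accctatgccctTGTGGTcttgccctgggc
Gzmb, chr14:56262351-56262380, minus strand: tgtgggttctgcTGTGGTtacttcatgatt
Prf1, chr10:61297694-61297723, minus strand: ctgcccccagagTGTGGTcacaggttccca
Nkg7, chr7:43437043-43437072, minus strand: cctctcctcctaTGTGGTaggggtgggccc
Klrk1, chr6:129623976-129624005, minus strand: tgatagctgtgcTGTGGTtgtgtgggggtt
Klrc1, chr6:129679043-129679072, plus strand: gaatacgagtgcTGTGGTaacaacaacaac
Klra1, chr6:130387058-130387087, minus strand: aatagagctgttTGTGGTtttcctaagatc
Klrb1c, chr6:128788713-128788742, minus strand: aggaaggaaagcTGTGGTcatggtgttttg
Of these 9 matches, 8 began within 130 bases before the annotated start, the nearest at base -34 of Gzmb, and the remaining one began at base -201 of Klra1. In 5 of the 9 the letters read in the direction of the gene. Among genes of related lists with a promoter in the table, TGTGGT was found in 11 of 20 other granzyme and granule genes, 6 of 23 other NK receptors, 5 of 16 adaptors and signalling genes, 4 of 12 transcription factors, cytokines and chemokines and 2 of 12 ligands on target cells. Counted by gene in the same way, TGTGGT was in 18.9% of all 27025 genes with a promoter. Among markers of other cells it was found in 4 of 5 mast cell, 2 of 5 neutrophil, 1 of 3 plasmacytoid dendritic cell, 1 of 7 pancreas, 0 of 6 T cell and 0 of 2 B cell genes, so it was not confined to killer cell genes. The arrays measured no binding, so these letters describe the genes and not the spleen sample.

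Of the receptors, Klrd1 (CD94), the shared chain that pairs with Klrc1 and other NKG2 chains, gave 390 on array 1 and 358.5 on array 2, or 374 ± 22.3 (SD, n = 2). It passed the brightness cutoff on both arrays, with 113% and 105% of it. Klrc1 (NKG2A), the inhibitory partner of CD94 that recognises the class I-like molecule Qa-1, gave 308.3 and 266.5, or 287 ± 29.6 (SD, n = 2). It reached 89.0% and 77.9% of the cutoff and exceeded the highest bacterial control 3.25-fold and 3.50-fold. Both chains of the inhibitory CD94/NKG2A receptor were therefore above background on both arrays, and the shared chain alone was bright.

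Klrk1 (NKG2D), the activating receptor for stress ligands, was read by 2 probe sets. The brighter gave 158.4 on array 1 and 150.7 on array 2, or 155 ± 5.44 (SD, n = 2), and was above background on both arrays. The dimmer, with the suffix _s_at, gave 81.6 and 105, or 93.3 ± 16.5 (SD, n = 2), and exceeded the highest control on array 2 only. Neither was bright, and the level read for this gene depended on the probe set.

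Klra1 (Ly49A), an inhibitory receptor for class I molecules, was named only together with relatives. The probe set of Klra4 and Klra1 gave 12.2 and 10.8, and that of Klra22, Klra16 and Klra1 gave 30.1 and 47.3, so both lay below the highest bacterial control on each array. Klrb1c, which encodes the NK1.1 antigen, shared its probe set with Klrb1b, and this gave 225.9 on array 1 and 144.9 on array 2, or 185 ± 57.3 (SD, n = 2). Signal of that probe set was above background on both arrays, and which of the genes carried it is not known. The labels name no mouse strain, and the genes and alleles of both families differ between strains.

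The relatives of these receptors were dim as well. In all, 12 probe sets name a gene of the Klra (Ly49) family, 6 of them several genes. Their signals spanned 12.2 to 183.3 on array 1, with a median of 60.5, and 10.8 to 164.9 on array 2, with a median of 90.4. None of the 12 was bright, and 4 were above background on both arrays: that of Klra3 (174 ± 13.0), both of Klra7 (151 ± 24.5 and 136 ± 0.0707) and 1 shared by Klra9 and Klra3 (139 ± 8.70; SD, n = 2 each). The 3 probe sets of the Klrb1 family exceeded it as well, but the single-gene ones by little: Klrb1a gave 115 on array 1 and 76.4 on array 2, and Klrb1b gave 97 and 77.2. For comparison, counted by gene and not by probe set, 45.2% of all named genes were bright and 73.9% were above background on both arrays.

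The arrays gave closely matching signals for the 6 measured members above the floor, each read by its brightest single-gene probe set. Of these 6 members, 2 (Gzma and Prf1) were higher on array 2 and 4 on array 1. Their median log2 difference, array 2 minus array 1, was -0.10. Over all 7 measured members, with Gzmk at the floor, it was -0.07, against 0.00165 over all named genes. The latter is the value that centring gives to every gene at the floor on both arrays. The log2 difference was 0.11 for Gzma, -0.12 for Klrd1, -0.20 for Gzmb, -0.21 for Klrc1, 0.25 for Prf1 and -0.07 for the brighter probe set of Klrk1. The SD of a member was between 3.52% and 11.9% of its mean, and the pooled SD of the 6 was 0.12 on the log2 scale.

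The spread expected at a given signal was taken from the 500 probe sets nearest in mean log2 signal. Their pooled SD was 0.20 around Gzma, 0.21 around Klrd1, 0.27 around Klrc1, 0.29 around Gzmb, 0.39 around Prf1 and 0.40 around the brighter probe set of Klrk1. Of these neighbours in signal, between 51.2% (for Klrc1) and 88% (for Klrk1) were further apart between the arrays than the member itself. None of the 7 single-gene probe sets above the floor on an array was over 1.5-fold apart, against 15.9% of all 10514 probe sets above the floor on an array and 13.5% of all probe sets. The largest gap among the 7 was 1.29-fold, for the dimmer probe set of Klrk1, and Gzmk, below the floor on both arrays, has no such value. The shared probe set of Klrb1b and Klrb1c was 1.56-fold apart, a log2 difference of -0.64, where the pooled SD of its neighbours in signal was 0.38.

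**Figure D2:**
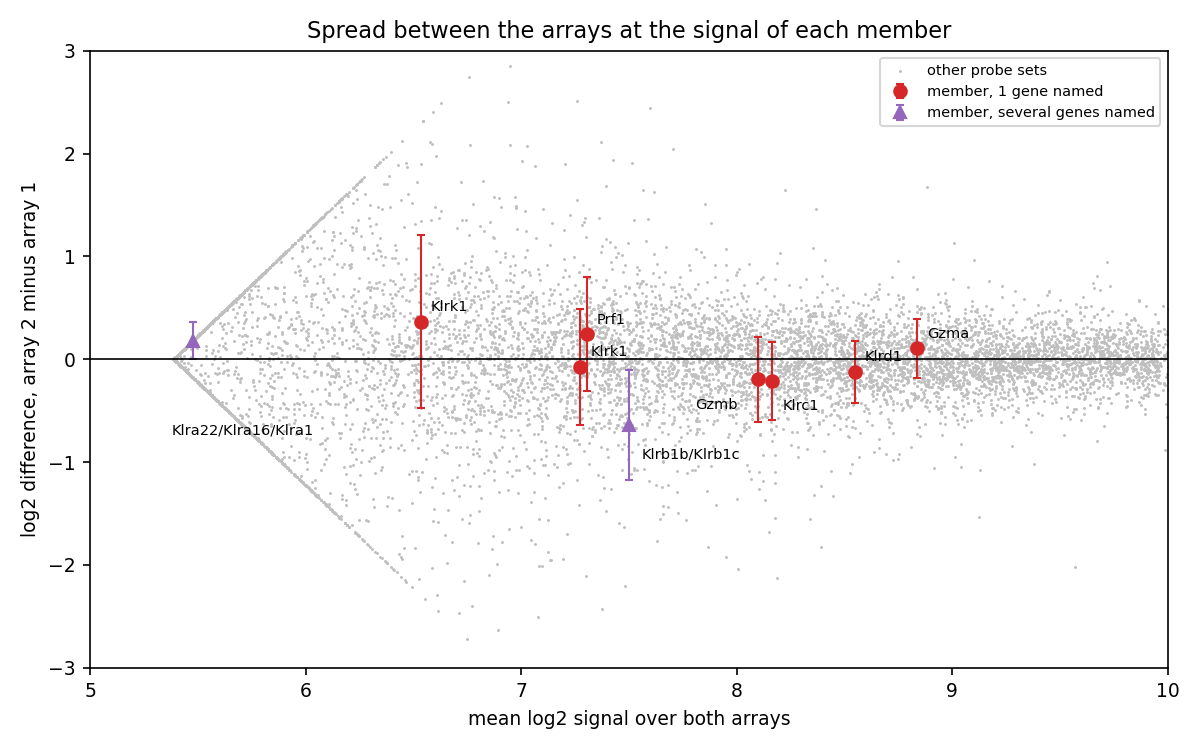
Log2 difference between the arrays (array 2 minus array 1) against mean log2 signal for all probe sets with a mean up to 10 (grey) and for the member probe sets above the floor on at least 1 array (coloured). Bars are 1 SD of a difference, taken from the 500 probe sets nearest in signal: the 7 single-gene member probe sets drawn lie within 1 bar of 0, and the shared Klrb1b/Klrb1c and Klra22/Klra16/Klra1 probe sets, at -0.64 and 0.18, lie just outside, the last of these near the floor, which replaced low values.

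The 5 lists of other genes of the killing pathway, written down whole by role, put the members in context and held 102 genes, of which 66 were measured and 28 were bright, against 45.2% of all named genes. Other granzymes and granule genes were bright in 8 of 16 cases. The granzymes of the Gzmb cluster were not among them: Gzmc gave 15.3 and 31.4, Gzmd 15.2 and 7.7, and Gzmf 5 and 16.2, all below the highest bacterial control. Gzmg gave 134.2 and 83.5 and was the only one of these 4 above it on both arrays.

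The bright genes of that list act in lysosomes and granules or, like Serpinb9, guard against their contents, and the 4 given here were named after their values were seen. Ctsc, the protease that activates granzyme precursors, gave 869 ± 11.0, Srgn, the proteoglycan that holds granule contents, gave 614 ± 144, and Lamp1, a lysosomal membrane protein, gave 7446 ± 335 (SD, n = 2 each). Serpinb9, the inhibitor that helps protect killer cells from their own Gzmb, gave 627 ± 92.6. Myeloid and B cells also use genes of this kind, and the cells that supplied these signals cannot be told apart.

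Other NK receptors were bright in 0 of 15 cases, and 7 were above background on both arrays, against 73.9% of all named genes. Their median signal was 85.2. The first measured of them by the order of the list were Klra2 at 34.9 ± 25.6, Klra3 at 174 ± 13.0, Klra5 at 85.3 ± 5.73 and Klra6 at 78.7 ± 29.6 (SD, n = 2 each). Ncr1 (NKp46), a receptor that marks NK cells, gave 133.9 and 113.5, above background on both arrays. It was named after its values were seen. Klrg1, Cd160, Crtam, Fcgr3 and Itga2 of the same list were not above background on both arrays. Il2rb, the receptor chain for interleukins 2 and 15, gave 171 and 358.5, so it passed the cutoff on array 2 and not on array 1.

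Receptor adaptors and signalling genes were bright in 11 of 16 cases, with a median of 861. Tyrobp (DAP12), the adaptor of activating NK receptors that myeloid cells also use, gave 4806 ± 498, Zap70, a kinase of T and NK cells, gave 1055 ± 85.8, and Syk gave 4178 ± 335 (SD, n = 2 each). The genes of this list that were not bright were Fcer1g at 105 ± 39.5, Cd247 (the CD3 zeta chain) at 229 ± 19.0, Sh2d1a at 47.0 ± 36.4, Sh2d1b1 at 210 ± 26.9 and Ptpn11 at 15.2 ± 5.66.

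Of 6 measured genes for ligands on target cells, 5 were bright. H2-D1 and H2-K1, the class I molecules, gave 22880 ± 175 and 24113 ± 2411, and their light chain B2m gave 15115 ± 578 (SD, n = 2 each). Cd48, the ligand of the NK receptor Cd244a, gave 2710 ± 4.60 and the adhesion ligand Nectin2 gave 489 ± 3.75, whereas Pvr, at 38.1 ± 12.6, was not bright. The class I probe sets read families of similar genes, so their signals are uncertain for single genes. Killer cell transcription factors, cytokines and chemokines were bright in 4 of 13 cases: the regulators Id2 at 3420 ± 61.4 and Ets1 at 962 ± 38.5, the receptor Il15ra at 447 ± 35.4 and the chemokine Ccl5 at 2196 ± 133. Eomes, a T-box factor of NK cells, gave 143 ± 18.5, and Ifng, the effector cytokine, gave 5.3 and 14.4, below the floor on both arrays.

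**Figure D3:**
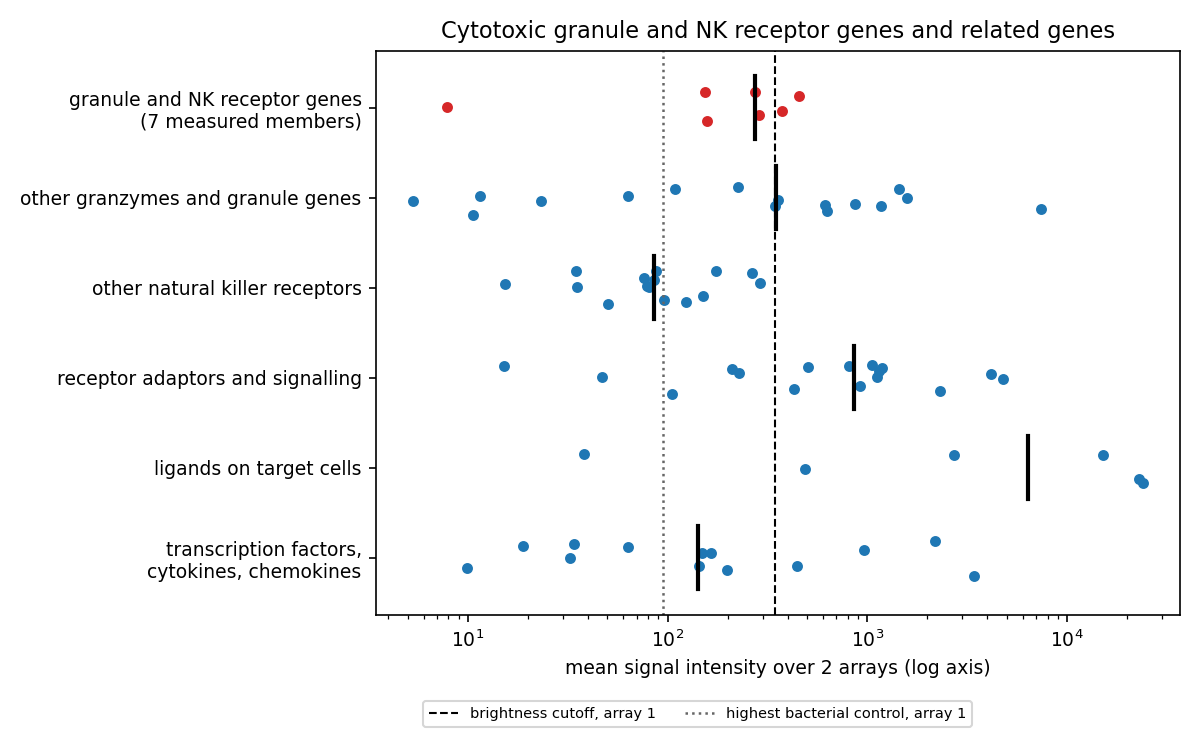
Mean signal over 2 arrays (log axis) of the 7 measured members and of the 5 lists of related genes, 1 point a gene, with the list median as a black bar. All 15 other NK receptors lie left of the brightness cutoff, as do 5 of the 7 members. Signals of different probes do not rank the genes.

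By position, all 5 receptor members lie in the natural killer gene complex of chromosome 6, and 3 of them had a single-gene probe set. From Klrb1a to Klra1 the RefSeq table lists 42 protein-coding genes, of which 12 had a single-gene probe set and 2 were bright: Klrd1 and Gabarapl1, an autophagy gene, at 1059 ± 15.0 (SD, n = 2). Klrd1 and Klrk1 are next to each other there, and Klrc1 follows after Klrc3 and Klrc2, which had no single-gene probe set. Of the 9 measured genes in this stretch that are not members, 5 were above background on both arrays, as were all 3 members. Over all named genes, 73.9% were above background and 45.2% were bright. Nothing particular to this stretch is read from so few genes.

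**Figure D4:**
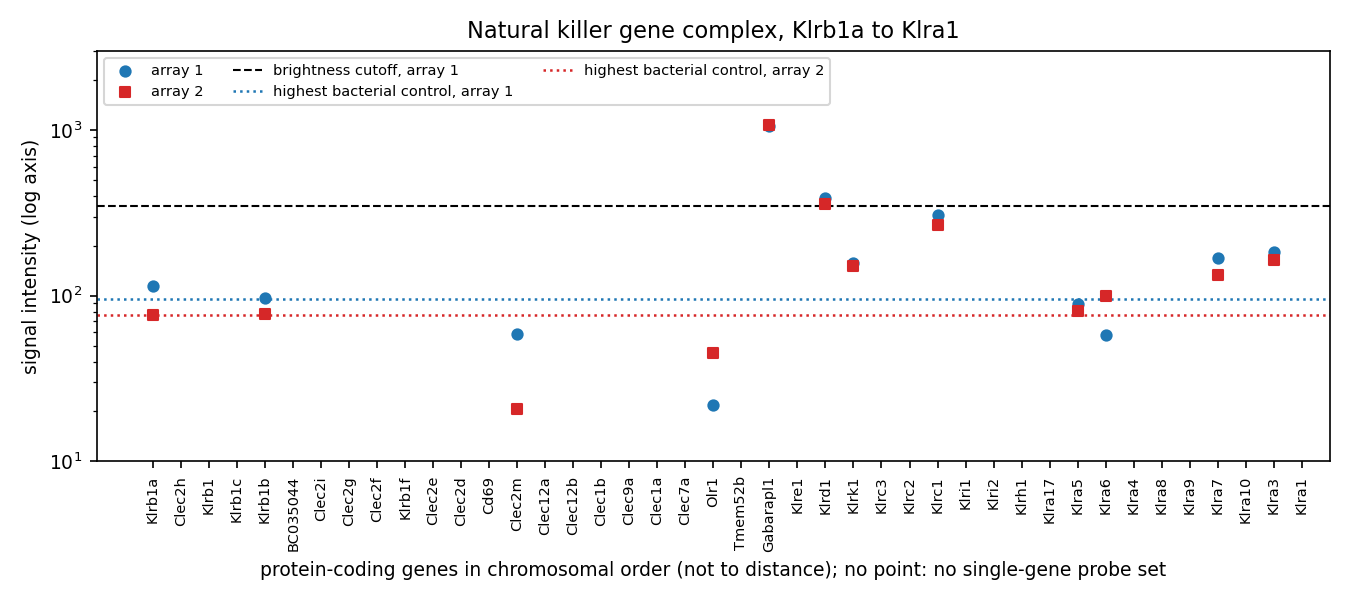
Signal on array 1 (circles) and array 2 (squares), on a log axis, of the genes from Klrb1a to Klra1 in chromosomal order; genes without points had no single-gene probe set. Gabarapl1 and Klrd1 lie above the brightness cutoff, Klrc1 and Klrk1 between the cutoff and the control lines, and Klra and Klrb1 genes near the control lines or up to 183.3.

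Gzmb lies at one end of a run of 15 granzyme and mast cell protease genes on chromosome 14, from Cma1 to Gzmb, of which 12 were measured. Only Cma2, a chymase, was bright, at 402 ± 40.4, and Ctsg, a protease of myeloid granules, gave 283 ± 10.7 (SD, n = 2 each). Together with Gzmb, 6 of the 12 were above background on both arrays, against 73.9% of all named genes. Near-identical genes of this run may share probes, so values of single genes are uncertain.

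Markers of other cells that could carry member transcripts or related proteases were counted in the same RNA. For comparison, 45.2% of all named genes were bright. T cell markers were bright in 7 of 8 cases, with Cd3e at 1190 ± 48.5, Cd3d at 590.0 ± 26.3 and Cd3g at 748 ± 114 (SD, n = 2 each). Cd8a and Cd8b1, the chains of the CD8 co-receptor of cytotoxic T cells, gave 552 ± 21.8 and 1044 ± 220. B cell markers were bright in 4 of 4 cases (Cd79a at 10602, Cd79b at 7162 and Cd22 at 1226 on average). Neutrophil markers were bright in 5 of 5 (S100a8 at 11078, S100a9 at 6521 and Ngp at 4807). Of 5 plasmacytoid dendritic cell markers listed, 3 were measured and all 3 were bright (Tcf4 at 663, Irf8 at 3452 and Ly6d at 1095). Siglech and Bst2 were not measured, and whether B cells supplied the signal of Tcf4, Irf8 and Ly6d was not tested. Markers of pancreas acinar cells were bright in 8 of 8 cases (Ctrb1 at 24153, Prss2 at 11435 and Cela1 at 8880), and several of these are serine proteases related to granzymes. The RNA labelled spleen thus also read strongly for genes of another organ. Whether this affected the member signals was not tested.

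Mast cells, which also store granule proteases, gave 0 bright of 7 measured markers, against 45.2% of all named genes. Cpa3 gave 89.1 and 132.8, Cma1 gave 225.1 and 265, and Mcpt4 gave 18.8 and 8.4. Tpsb2 gave 354.6 and 214.1, so it passed the cutoff on array 1 and not on array 2. Summed over the list, mast cell markers gave 741 on array 1 and 735.7 on array 2, and T cell markers 5728.1 and 6076.5. The sums cover different genes and probe sets, so they do not compare the amounts of these cells. How much of the member signal came from T cells, NK cells or other cells was not tested.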

How the data were processed

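RNA was measured on 2 arrays of purchased mouse spleen RNA. Intensity values on a linear scale were used as deposited. The software that made them, detection calls and a genome build are not given in the sources used here. Probe sets were named from the platform's annotation, and RefSeq GRCm38.p6 supplied gene order and promoters.

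The 66 control probe sets were left out of percentiles and counts. Signals below the 20th percentile of their array (41.8 in each case) were raised to it before log2 was taken. Where several single-gene probe sets read a gene, the brightest was used. The median log2 difference of bright probe sets (-0.00165) was subtracted from all differences. Shared probe sets were given as such.

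With 1 group, no test was made. The members and lists were chosen with earlier results of these data known. All members were named, then from each related list its genes on the smaller side of the brightness call where 5 or fewer, otherwise its first 4 measured, and the first 3 of each marker list. Genes outside this rule (Ctsc, Srgn, Lamp1, Calr, Gzmm, Ctsw, Nfil3, Ccl4, Xcl1, Serpinb9, Ncr1, Klrg1, Cd160, Crtam, Fcgr3, Itga2, Il2rb, Tyrobp, Zap70, Syk, Eomes, Ifng, Cd8a, Cd8b1, Tpsb2, Cma2, Ctsg, Gabarapl1, Klra7, Klra9, Klrb1a, Klrb1b, H2-D1, H2-K1, B2m, Cd48, Nectin2) were named after their values were seen. With 2 arrays of 1 group, no gene could be named for a like pattern. The pooled SD and the 1.5-fold call were tested on simulated data, for bright probe sets only. The brightness, background and motif counts were not tested in this way. Alternatives changed the floor, a pseudocount of 16, normalization, centring, brightness cutoff, control limit, probe sets and arrays. Python 3.11.15, numpy 2.4.6, pandas 2.3.3 and matplotlib 3.10.9 were used.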

Additional observations from a re-analysis of the deposited data

How the results depend on the processing

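The number of bright members, 2 of 7, was 4 with the cutoff at the 50th percentile, which 55.7% of all named genes passed. Gzmb and Klrc1 joined there. It was 0 at the 75th percentile, which 28.5% passed. Without probe sets that carry a suffix, which dropped Gzma, it was 1 of 6, against 43.4% of all named genes. It was 2 of 7 for either array by itself (47.6% of all named genes each time), a mean over a gene's probe sets (38.3%) and quantile normalization (45.2%). With shared probe sets added it was 2 of 9, against 47.0%. The median log2 signal of the members, 8.10, was 7.70 without suffixed probe sets, where Gzma dropped out. It was 7.50 with shared ones added, where Klra1 and Klrb1c entered. This median moved by less than the SD between the arrays under the other alternatives. Members above the bacterial controls, 6 of 7, were 5 of 6 without suffixed probe sets, against 72.3% of all named genes. With shared probe sets added they were 7 of 9, against 74.5%. Under the rest of the 6 alternatives run they were 6 of 7, against 71.4% to 79.1% of all named genes. The probe sets over 1.5-fold apart, 0 of 8 with Gzmk counted at the floor, became 1 of 11 with shared probe sets. The median log2 difference stayed between -0.12 and 0.00165. The upper value, with a mean over probe sets, is what centring gives to genes at the floor such as Gzmk. The bright related genes, 28 of 66, were 21 at the 75th percentile and 30 at the 50th, where 28.5% and 55.7% of all named genes passed. They were 26 of 59 without suffixed probe sets, against 43.4%, and 29 of 73 with shared ones added, against 47.0%. Under the other alternatives they were 26 to 29 of 66, against 38.3% to 47.6%. Of 62 recomputed levels of single members, 5 moved beyond 1 SD, 3 for Gzmk, whose value is set by the floor or pseudocount, and 2 for Klrk1. No paired analysis was possible because there is only 1 group. With 2 arrays, signals near the bacterial controls have no reliable order.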

Other observations

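Of the 66 measured related genes, 4 lay over 1 apart between the arrays on the log2 scale after the floor of 41.8 was applied, 3 lower and 1 higher on array 2, given here as values with no test. Il2rb, at 171 and 358.5 (log2 difference 1.07), was the only one of the 4 above background on both arrays. Nfil3, a transcription factor needed for NK cell development, gave 250.5 on array 1, against 47.5 on array 2 (log2 difference -2.40), on a probe set with the suffix _f_at, and was not above background on array 2. Ccl4, a chemokine of activated killer cells, gave 88.4 and 38.9, and Gzmm, a granzyme, gave 88 and 39. Both were below the highest bacterial control on each array, so their differences have no reliable size. Ctsw, a protease found in cytotoxic lymphocytes, gave 212.4 and 238.4, and Xcl1, a chemokine of NK cells, gave 212.8 and 186.5. Ctsw and Xcl1 exceeded the highest bacterial control on both arrays without being bright.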
